A study of Mus musculus with 6 samples.

Results

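Protein folding and stress signalling in the endoplasmic reticulum (ER) were followed through 47 mouse genes in colonic tissue of mice with colitis, with and without deoxycholic acid (DCA). The genes were taken by name, as the rows of the deposited expression table whose gene name matched the list. The list was chosen with earlier results of these data known, so the counts below are not from a list made blind to them. The 47 names matched 48 of 36977 rows, because Ddit3 was listed under 2 identifiers, and 42 of the 48 rows reached the mean of 0.5 FPKM (fragments per transcript length and mapped total) needed to be tested. RNA-seq libraries of mouse colonic tissue formed 2 groups, DSS and DSS+DCA, with 3 libraries in each, numbered 1, 2 and 4. All 6 samples were labelled wild type, and the protocol label of every sample gave 7 days of 2% dextran sodium sulfate (DSS), which damages the lining of the colon, and then a DCA enema. Only the treatment labels told the groups apart, as DSS and as DSS and DCA, and a substitute for DCA in the DSS group is not stated there. DCA is a secondary bile acid made by gut bacteria. The labels used here give no strain, age or sex. They also do not say that each library came from its own mouse, so p-values measure only the spread between libraries, which may be technical.

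Secreted and membrane proteins enter the ER through the Sec61 translocon and fold there with the help of Hsp70 and Hsp90 chaperones, the lectin chaperones calnexin and calreticulin, and enzymes that form disulfide bonds or turn proline bonds. When unfolded protein accumulates, the sensors IRE1, PERK and ATF6 start the unfolded protein response, in which the transcription factors XBP1, ATF6 and ATF4 raise chaperones, disulfide isomerases and the machinery of ER-associated degradation. In the colon the load is heaviest in goblet cells, which fold and secrete the mucin MUC2, and in plasma cells of the lamina propria, which secrete antibody. Bile acids including DCA have been studied as inducers of ER stress in cultured cells.

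ATF6 and XBP1 reach many of these genes through the ER stress response element (ERSE), a CCAAT box followed at a fixed distance by CCACG. The sites found are shown because they mark which of the genes hold the exact letters of this element in the window searched. The RefSeq promoters of build GRCm38.p6, each from 250 bases before to 50 bases after the start of the gene, held 41 of the 47 names, in 48 promoters. Hyou1, Manf, Ern2, Atf6, Derl1 and Sec61a1 were not matched. On either strand, the ERSE letters, CCAAT then 9 bases of any kind then CCACG, were found in 9 of the 41 (22%), against 0.137% of the 27025 genes in the table, and the related ERSE-II letters, ATTGG then 1 base of any kind then CCACG, in 2 (4.88%, against 0.0444%). Each line gives 1 site in the direction of the motif with 8 bases on both sides, and capitals mark the CCAAT and CCACG of ERSE or the whole of ERSE-II.
Hspa5, ERSE, chr2:34772017-34772051, plus strand: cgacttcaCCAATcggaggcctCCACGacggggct
Hsp90b1, ERSE, chr10:86705630-86705664, minus strand: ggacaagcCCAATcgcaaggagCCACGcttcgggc
Hsp90b1, ERSE, chr10:86705525-86705559, plus strand: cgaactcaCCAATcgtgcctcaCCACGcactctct
Dnajb11, ERSE-II, chr16:22857844-22857870, plus strand: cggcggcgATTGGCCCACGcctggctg
Dnajc3, ERSE, chr14:118937819-118937853, plus strand: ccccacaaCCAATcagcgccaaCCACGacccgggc
Calr, ERSE, chr8:84847067-84847101, plus strand: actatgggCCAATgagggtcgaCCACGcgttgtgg
Canx, ERSE, chr11:50325792-50325826, minus strand: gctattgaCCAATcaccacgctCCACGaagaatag
Pdia6, ERSE, chr12:17266483-17266517, plus strand: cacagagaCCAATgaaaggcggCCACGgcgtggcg
Creld2, ERSE, chr15:88819512-88819546, minus strand: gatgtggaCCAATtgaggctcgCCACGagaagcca
Herpud1, ERSE-II, chr8:94386369-94386395, plus strand: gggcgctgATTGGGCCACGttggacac
Syvn1, ERSE, chr19:6046524-6046558, plus strand: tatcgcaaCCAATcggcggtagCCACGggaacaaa
Derl3, ERSE, chr10:75893234-75893268, minus strand: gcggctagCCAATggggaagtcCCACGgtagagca

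The ERSE sites lay 44 to 212 bases before the start, with 2 in Hsp90b1, and the ERSE-II of Dnajb11 lay just after it. The core of the unfolded protein response element, TGACGTGG, which holds CCACG on its other strand, was found in Txndc5 and Txndc11 (4.88%, against 0.714%). The exact letters TGATGCAAT, 1 form of the amino acid response element bound by ATF4, were found in 0 of the 41 (against 0.222%). Other forms of that element, and of ERSE, ERSE-II and the unfolded protein response element, were not searched for. CCACG alone was present in 78% of the 41 names and 35.5% of all genes, and CCAAT alone in 75.6% and 41.1%. A match of letters is a description of the sequence and not a bound site.

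The 250 bases before the start are shown for Agr2, Fkbp11 and Sdf2l1, the 3 genes of the set that passed the test between the groups, and for Hspa5, whose ERSE is the textbook example. Capitals mark CCACG or CCAAT on either strand, so that CGTGG and ATTGG are the same motifs read on the other strand.
Agr2, chr12:35992675-35992924, plus strand: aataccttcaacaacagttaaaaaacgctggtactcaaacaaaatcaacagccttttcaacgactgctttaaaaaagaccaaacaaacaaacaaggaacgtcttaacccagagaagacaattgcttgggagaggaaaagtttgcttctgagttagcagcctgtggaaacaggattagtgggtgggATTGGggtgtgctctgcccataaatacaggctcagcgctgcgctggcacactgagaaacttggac
Fkbp11, chr15:98728199-98728448, minus strand: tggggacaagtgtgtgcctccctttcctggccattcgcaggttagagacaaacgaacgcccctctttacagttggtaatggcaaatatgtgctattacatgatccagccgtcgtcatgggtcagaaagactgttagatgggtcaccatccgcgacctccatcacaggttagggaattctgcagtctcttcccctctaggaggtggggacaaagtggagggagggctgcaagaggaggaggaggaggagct
Sdf2l1, chr16:17132384-17132633, minus strand: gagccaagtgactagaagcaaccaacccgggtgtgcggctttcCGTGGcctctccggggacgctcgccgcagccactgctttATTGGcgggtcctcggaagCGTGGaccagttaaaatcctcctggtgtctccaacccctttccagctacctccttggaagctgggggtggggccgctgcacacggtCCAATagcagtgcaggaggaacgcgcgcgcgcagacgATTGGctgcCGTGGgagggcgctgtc
Hspa5, chr2:34771840-34772089, plus strand: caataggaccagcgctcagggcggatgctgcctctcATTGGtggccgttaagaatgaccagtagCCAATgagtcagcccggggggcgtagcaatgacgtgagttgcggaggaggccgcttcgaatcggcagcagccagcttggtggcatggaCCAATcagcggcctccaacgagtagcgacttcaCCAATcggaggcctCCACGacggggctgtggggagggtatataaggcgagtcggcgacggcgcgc

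In these windows Agr2 held 1 CCAAT and 0 CCACG, Fkbp11 held neither in the first of its 2 promoters, and Sdf2l1 held 3 of each without the ERSE spacing. Hspa5 held 4 CCAAT and 1 CCACG. None of the 3 genes that passed the test held the exact letters of ERSE or ERSE-II in its promoter window.

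The libraries did not vary evenly. DSS replicate 4 lay between DSS replicates 1 and 2 for 28 of the 42 tested members (66.7%, against 51.7% of all tested genes). Its median distance from their mean was 0.0628 on the log2 scale, where replicates 1 and 2 differed by 0.17. DSS+DCA replicate 4 lay between DSS+DCA replicates 1 and 2 for 25 of the 42 (59.5%, against 47.9% of all tested genes). Its median distance from their mean was 0.373, where those 2 differed by 0.707. DSS+DCA replicates 2 and 4 had a high share of mitochondrial transcripts (47.6% and 46.7% of summed FPKM, against 29.4% to 31.4% elsewhere) and a low share of nuclear protein-coding genes (20.9% and 24.2%, against 44.8% to 46.0%). The libraries held abundant epithelial keratin, with Krt8 at 2528 ± 315 FPKM in DSS (SD, n = 3), and also smooth muscle transcripts, which the cell type label of intestinal epithelial cells would not lead to. Smooth muscle myosin Myh11 ranged from 1.07 to 38.7 FPKM in DSS and from 3.43 to 134 in DSS+DCA. Read depth was not given by the files and could not be recovered from the FPKM.

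The comparison asked how gene expression in the inflamed colon differs with DCA, here in the folding machinery. Of the 42 tested members, Agr2, Fkbp11 and Sdf2l1 fell with DCA and 0 rose (adjusted p under 0.05 over all 14611 tested genes, limma), where 0.431% of all tested genes passed in the lower direction and 0.13% in the higher. At an adjusted p under 0.1 Calr and Pdia5 joined them, which made 5 of the 42 against 1.57% of all tested genes. In all, 24 of the 42 had an unadjusted p under 0.05, against 16.7% of all genes. The fitted change was below 0 for 40 members (60.5% of all genes), and the median was -0.69 against -0.09 for all tested genes. In 22 members every DSS+DCA library measured below every DSS library (17.8% of all genes), in 0 above (5.8%), and in 20 the groups overlapped. In bulk tissue, fewer cells of a type and less RNA per cell cannot be told apart. With DSS replicate 4 left out, limma called 0 of 14689 genes, with 1407 at an unadjusted p under 0.05, and the 3 members had adjusted p = 0.171 for Agr2, 0.136 for Fkbp11 and 0.220 for Sdf2l1, with log2 changes of -2.51, -1.86 and -1.37. Without DSS replicate 1 it called 0 genes (1498 at an unadjusted p under 0.05), and without DSS replicate 2 it called 16 genes and 0 members.

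**Figure D1:**
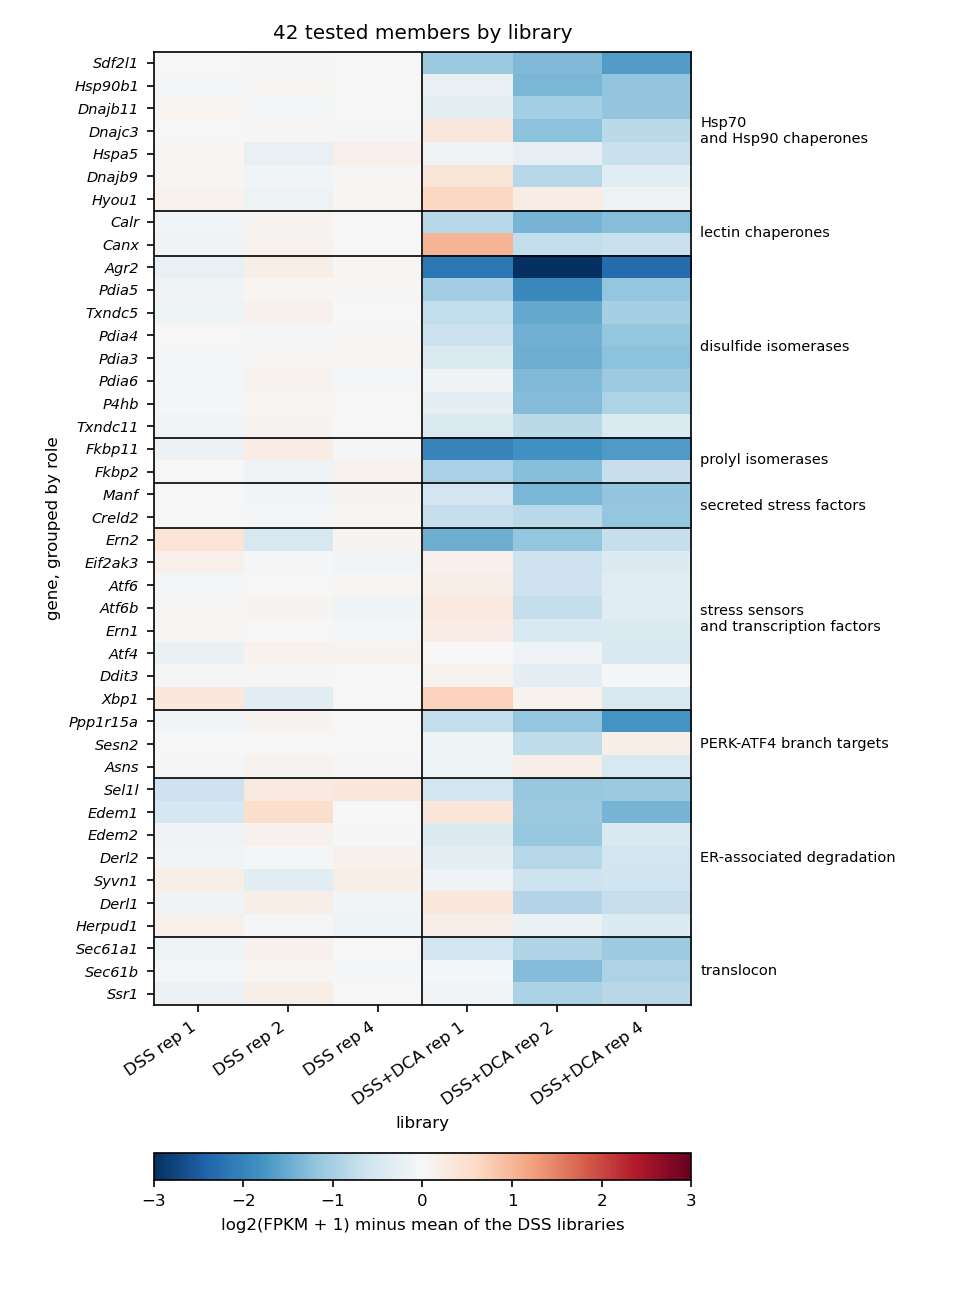
Heat map of the 42 tested members (rows, grouped by role) in the 6 libraries (columns); colour is log2(FPKM + 1) minus the mean of the DSS libraries. Agr2 is the darkest row with DCA, the 8 disulfide isomerases are below DSS in each DSS+DCA library, and several sensors are above it in DSS+DCA replicate 1.

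Of the disulfide isomerases, which form and reshuffle the cysteine bridges of secreted proteins, 8 were tested and only Agr2 passed the test. All 8 had every DSS+DCA library below every DSS library (17.8% of all tested genes), and their median log2 change was -1.06. Agr2 serves mucin folding in goblet cells and measured 547, 731 and 661 FPKM in DSS replicates 1, 2 and 4 against 143, 72.8 and 129.7 in the DSS+DCA libraries of the same numbers. The lowest DSS library was far above the highest DSS+DCA library. The mean fell from 646 ± 92.8 to 115 ± 37.2 FPKM (SD, n = 3 each), 5.62-fold, with a log2 change of -2.53 ± 0.30 (SE, limma adjusted p = 0.0346). In DSS, Agr2 alone held 26.8% to 31.3% of the summed FPKM of the 48 rows, and 9.18% to 14.2% with DCA. Its gene lies on chr12:35992907-36004087 on the plus strand by the gene models of GENCODE M21 (GRCm38). The neighbouring family member Agr3 was close to absent, at 0, 0.335 and 0 FPKM in DSS and 0.0639, 0.119 and 0.204 with DCA, and was not tested.

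Pdia5, another protein disulfide isomerase, measured 12.8, 14.4 and 14.3 FPKM in DSS and 6.23, 2.90 and 5.64 with DCA. The groups lay apart, with a 2.81-fold lower mean, and the log2 change of -1.37 ± 0.26 did not pass (SE, limma adjusted p = 0.0855). Pdia4 (ERp72) measured 42.7, 40.2 and 43.4 FPKM in DSS and 26.8, 14.8 and 18.3 with DCA, again without overlap (log2 change -1.08 ± 0.24 SE, limma adjusted p = 0.116). DSS+DCA replicate 1 was the highest of its group for Pdia4, as for the other tested members of the class but Txndc11. Txndc5 (ERp46) averaged 54.4 ± 4.63 FPKM in DSS and 25.6 ± 7.14 with DCA. The most abundant members after Agr2 were P4hb, the prototype protein disulfide isomerase, at 169 ± 7.01 and 98.2 ± 35.7 FPKM, and Pdia3 (ERp57), the partner of the lectin chaperones, at 164 ± 6.61 and 82.9 ± 33.3. Pdia6 and Txndc11 had log2 changes of -0.85 and -0.56, and the 5 members from Txndc5 to Txndc11 had limma adjusted p from 0.116 to 0.261. Pdia2, an isomerase best known from pancreas, stayed between 0.0177 and 0.372 FPKM and was not tested.

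The prolyl isomerases both separated the groups, as did 17.8% of all tested genes in the lower direction. Fkbp11, a membrane-bound isomerase of secretory cells and a known XBP1 target, measured 6.72, 9.20 and 7.45 FPKM in DSS and 1.19, 1.47 and 1.68 with DCA. All 3 DSS+DCA libraries were low and close to each other. Its mean fell 5.39-fold, from 7.79 ± 1.27 to 1.45 ± 0.246 FPKM, with a log2 change of -1.84 ± 0.18 (SE, limma adjusted p = 0.0266). Fkbp11 lies on chr15:98724366-98728198 on the minus strand (GRCm38). Fkbp2 measured 70.3, 65.5 and 76.2 FPKM in DSS and 35.7, 28.5 and 43.2 with DCA. The groups of Fkbp2 did not overlap, and the log2 change of -0.98 ± 0.21 did not pass (SE, limma adjusted p = 0.112).

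Among the 7 Hsp70 and Hsp90 chaperones and their partners, 1 fell (0.431% of all tested genes), 6 did not pass and the median log2 change was -0.58. Sdf2l1, a stress-inducible partner of the BiP and Dnajb11 complex, measured 27.0, 26.0 and 26.9 FPKM in DSS and 11.8, 9.98 and 7.62 with DCA. The DSS libraries were almost level and all 3 DSS+DCA libraries lay far below them. The mean fell 2.71-fold, from 26.6 ± 0.537 to 9.81 ± 2.11 FPKM, with a log2 change of -1.37 ± 0.20 (SE, limma adjusted p = 0.0447). Sdf2l1 lies on chr16:17130138-17132383 on the minus strand (GRCm38). Its partner Dnajb11 (ERdj3) measured 46.0, 43.3 and 43.8 FPKM in DSS and 36.0, 21.4 and 19.1 with DCA. These groups lay apart with DSS+DCA replicate 1 nearest to DSS (log2 change -0.83 ± 0.26 SE, limma adjusted p = 0.199). Hsp90b1 (GRP94), the most abundant of the group, measured 137, 147 and 144 FPKM in DSS and 122, 54.4 and 62.2 with DCA, without overlap (log2 change -0.93 ± 0.32 SE, limma adjusted p = 0.233).

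Hspa5 (BiP), the ER Hsp70 that holds the sensors inactive, is given here although it was chosen after its values were seen. It measured 16.4, 13.4 and 17.5 FPKM in DSS and 14.5, 13.1 and 9.43 with DCA. The groups overlapped, and the log2 change was -0.34 ± 0.21 (SE, limma adjusted p = 0.458). Dnajc3 (p58IPK) and Dnajb9 (ERdj4), both co-chaperones of BiP, were highest of all 6 libraries in DSS+DCA replicate 1 (11.6 and 10.8 FPKM) and lowest in DSS+DCA replicate 2 (3.23 and 4.12 FPKM). Hyou1 (GRP170), the exchange factor of BiP, was low throughout at 1.13 ± 0.191 and 1.56 ± 0.682 FPKM, with a fitted log2 change of 0.23 ± 0.22 (SE, limma adjusted p = 0.622).

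Of the lectin chaperones, the soluble Calr (calreticulin) measured 227, 254 and 239 FPKM in DSS and 134, 90.7 and 97.9 with DCA. The groups lay clearly apart at a 2.23-fold lower mean, and the log2 change was -1.17 ± 0.22 (SE, limma adjusted p = 0.0830). Its membrane-bound relative Canx (calnexin) measured 24.5, 28.5 and 26.9 FPKM in DSS and 55.0, 15.6 and 16.4 with DCA. DSS+DCA replicate 1 was above and the other 2 below every DSS library, and the log2 change was -0.12 ± 0.46 (SE, limma adjusted p = 0.917). The difference between the 2 genes was not tested. Manf and Creld2, small factors that are secreted under ER stress, averaged 28.8 ± 1.53 and 33.5 ± 1.23 FPKM in DSS and 13.9 ± 4.56 and 17.8 ± 3.07 with DCA. Both separated the groups, as did Calr and, in the lower direction, 17.8% of all tested genes. The log2 changes of Manf and Creld2, -1.04 and -0.88, did not pass (limma adjusted p = 0.124 and 0.112).

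**Figure D2:**
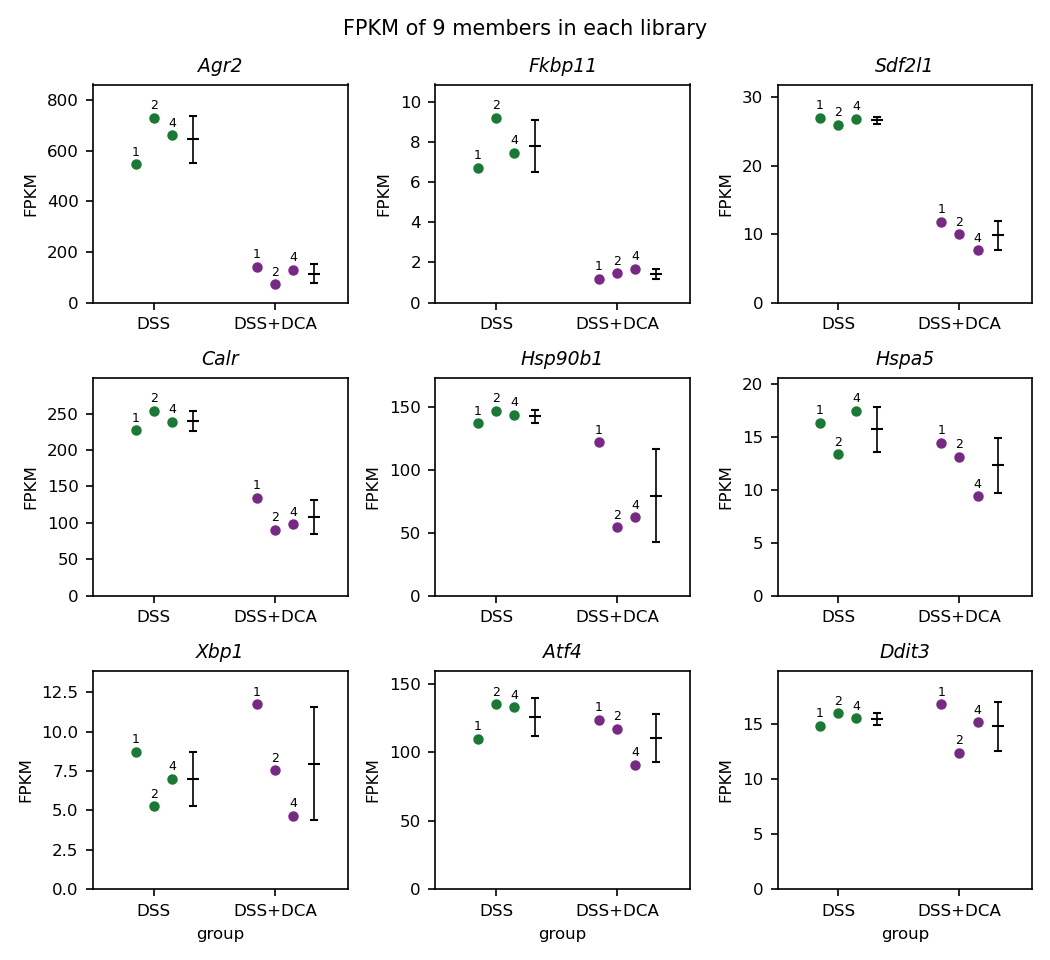
FPKM (vertical axes, each starting at 0) of 9 members in the DSS and DSS+DCA libraries; points are libraries with their replicate number, and bars are the mean and SD of 3 libraries. Agr2, Fkbp11, Sdf2l1 and Calr show a wide gap between the groups, Hsp90b1 a narrow one, and Hspa5, Xbp1, Atf4 and Ddit3 overlap.

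The stress sensors and transcription factors had 0 of 8 tested members called, against 0.561% of all tested genes. At an unadjusted p under 0.05 there was 1 of 8 (16.7% of all), and 1 of 8 separated lower (17.8% of all). Their median log2 change was -0.24, the nearest to 0 among the role groups with at least 7 tested members. Ern2 (IRE1 beta), the sensor found in goblet cells, measured 14.8, 7.48 and 11.5 FPKM in DSS and 3.33, 4.29 and 6.32 with DCA. Its groups came close without overlapping, and the log2 change was -1.11 ± 0.30 (SE, limma adjusted p = 0.162). Ern1 (IRE1 alpha), which most cells carry, measured 2.46, 2.36 and 2.26 FPKM in DSS and 2.93, 1.43 and 1.50 with DCA. Here DSS+DCA replicate 1 was above and the other 2 below every DSS library (log2 change -0.22 ± 0.22 SE, limma adjusted p = 0.638). Atf6 showed the same order, with 2.42, 2.59 and 2.60 FPKM in DSS and 3.04, 1.28 and 1.74 with DCA, and so did its relative Atf6b, with 12.0, 12.5 and 10.6 against 14.5, 6.68 and 9.20. Eif2ak3 (PERK), which phosphorylates the initiation factor eIF2, measured 3.53, 2.91 and 2.88 FPKM in DSS and 3.48, 1.67 and 2.08 with DCA, with overlap.

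Atf4, the transcription factor translated when eIF2 is phosphorylated, was the most abundant of these genes and measured 109.8, 135 and 133 FPKM in DSS and 124, 117 and 90.7 with DCA. The groups overlapped, with a log2 change of -0.19 ± 0.21 (SE, limma adjusted p = 0.670). Xbp1 and Ddit3 were chosen after their values were seen. Xbp1, the transcription factor made active when IRE1 splices its mRNA, measured 8.73, 5.27 and 7.00 FPKM in DSS and 11.7, 7.53 and 4.64 with DCA, spanning the DSS range on both sides. FPKM per gene do not separate its spliced from its unspliced form. Ddit3 (CHOP), a factor of prolonged stress, measured 14.9, 16.0 and 15.5 FPKM in DSS and 16.8, 12.4 and 15.2 with DCA, with a log2 change of -0.07 ± 0.18 (SE, limma adjusted p = 0.874). A further Ddit3 identifier, which overlaps the first on chromosome 10, stayed at or below 0.0941 FPKM, and how reads were shared between them is uncertain.

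Of the genes that ATF4 and CHOP raise, 3 were tested, with a median log2 change of -0.23. Of these 0 were called and 1 had an unadjusted p under 0.05, against 0.561% and 16.7% of all tested genes. Ppp1r15a (GADD34), which returns eIF2 to its active form, measured 16.3, 18.5 and 17.5 FPKM in DSS and 10.1, 7.23 and 4.31 with DCA. The groups lay apart at a 2.41-fold lower mean, with a log2 change of -1.23 ± 0.28 (SE, limma adjusted p = 0.122). Asns, the asparagine synthetase, measured 5.76, 6.60 and 5.78 FPKM in DSS and 5.43, 6.96 and 4.02 with DCA. Sesn2, a stress-induced regulator of mTORC1, measured 4.74, 4.59 and 4.71 FPKM in DSS and 4.20, 2.36 and 5.53 with DCA, so that both genes had DSS+DCA libraries above and below DSS. The pseudokinase gene Trib3 and the glutathione-degrading Chac1 were too low to be tested. Trib3 measured 0.400, 0.212 and 0.353 FPKM in DSS and 0.479, 0.480 and 0.424 with DCA. It was the only row of the 48 with every DSS+DCA library above every DSS library, against 7.65% of all 36977 rows. Chac1 stayed between 0.266 and 0.962 FPKM.

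ER-associated degradation, which returns misfolded protein to the cytosol for the proteasome, had 0 of 7 tested members called and a median log2 change of -0.56. At an unadjusted p under 0.05 there were 3 of 7, and 2 of 7 separated lower. Over all tested genes these shares were 0.561% called, 16.7% and 17.8%. Sel1l, the adaptor of the ubiquitin ligase Syvn1 (HRD1), measured 3.08, 6.65 and 7.01 FPKM in DSS and 3.23, 1.86 and 1.89 with DCA. DSS replicate 1 was as low as DSS+DCA replicate 1, so the groups overlapped, and the log2 change was -0.95 ± 0.31 (SE, limma adjusted p = 0.217). Edem2, a mannosidase that marks glycoproteins for degradation, measured 18.6, 22.2 and 19.5 FPKM in DSS and 14.9, 8.63 and 14.2 with DCA, without overlap. Derl2, of the derlin family of the degradation channel, measured 7.96, 8.06 and 9.29 FPKM in DSS and 6.81, 4.19 and 5.39 with DCA, also without overlap. Derl1, of the same family, measured 17.1, 21.0 and 17.5 FPKM in DSS and 23.3, 9.56 and 11.0 with DCA, where replicate 1 was the highest of all 6 libraries. Herpud1, Syvn1 and Edem1 overlapped, with log2 changes of -0.14, -0.44 and -0.71, and Derl3 stayed at or below 0.369 FPKM and was not tested. The 7 tested genes had limma adjusted p from 0.217 to 0.759.

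The translocon genes had a median log2 change of -0.76. Of the 3, 0 were called and 3 had an unadjusted p under 0.05, against 0.561% and 16.7% of all tested genes. Sec61a1, which forms the channel, measured 27.9, 33.5 and 30.5 FPKM in DSS and 20.3, 15.8 and 13.9 with DCA, and the groups lay apart (log2 change -0.85 ± 0.20 SE, limma adjusted p = 0.125). Sec61b, a small subunit, measured 81.6, 87.7 and 81.5 FPKM in DSS and 79.6, 33.6 and 43.6 with DCA. DSS+DCA replicate 1 was barely below DSS and the other 2 far below (limma adjusted p = 0.297). Ssr1, a subunit of the translocon-associated complex, measured 11.7, 15.1 and 13.5 FPKM in DSS and 12.5, 6.38 and 7.04 with DCA, with overlap (limma adjusted p = 0.298).

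By level in FPKM, which is per length and so can be set between genes, the highest means in DSS were Agr2 at 646, Calr at 239.7, P4hb at 169, Pdia3 at 164, Hsp90b1 at 142 and Atf4 at 126 FPKM, and Agr2 stood well above the range of Calr. With DCA they were Agr2 at 115, Atf4 at 110.5, Calr at 108, P4hb at 98.2, Pdia3 at 82.9 and Hsp90b1 at 79.5 FPKM, and these 6 did not differ from their neighbours in the order beyond the spread over libraries.

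The 3 DSS+DCA libraries departed from DSS to different degrees. In DSS+DCA replicate 1, 24 of the 42 tested members were below the range of the DSS libraries, 7 within it and 11 above it, where 26.3% of all tested genes were below and 47.3% above. The 11 above were Hyou1, Dnajb9, Dnajc3, Canx, Ern1, Xbp1, Atf6, Atf6b, Ddit3, Herpud1 and Derl1. In DSS+DCA replicates 2 and 4, 38 and 39 members were below, against 53.6% and 53.4% of all genes. The 8 disulfide isomerases were below the DSS range in all 3 libraries, while 5 of the 8 sensors and transcription factors were above it in replicate 1. Without DSS+DCA replicate 1, limma called 22 members and 1321 genes. Without DSS+DCA replicate 2 it called 2 members and 177 genes. Without DSS+DCA replicate 4 it called 0 members (11 genes).

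Markers of other cell types were measured beside the set. All 18 goblet cell markers had a fitted change below 0, with a median of -0.94, and their summed FPKM ran from 5042 to 6835 in DSS and from 1068 to 3200 with DCA, with none at 0. One of them, the goblet cell resistin-like gene Retnlb, passed the test, and Zg16, a mucus lectin and the most abundant, did not (1899 to 2611 against 372 to 1305 FPKM, limma adjusted p = 0.146). Muc2 measured 640.2, 480.5 and 571 FPKM in DSS and 282, 222 and 314 with DCA (limma adjusted p = 0.115). The 15 general epithelial markers had 14 fitted below 0, a median of -0.80 and summed FPKM of 8660 to 10483 in DSS and 4260 to 7398 with DCA, with none at 0. Of these Epcam, an epithelial adhesion molecule, overlapped, at 484, 394 and 450.5 FPKM in DSS and 622, 209.7 and 241 with DCA. The part of cell composition in the lower folding genes was not tested.

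Of the 14 plasma cell markers 11 were tested, 8 fitted lower and 0 called, with summed FPKM of 851 to 1451 in DSS and 238 to 643 with DCA, mostly from Igkc. The members did not all lie on the same side. Igkc, Igha, Iglc1 and Cd38 were lower in every DSS+DCA library, while the IgM heavy chain gene Ighm averaged 3.01 ± 0.556 FPKM in DSS and 13.1 ± 9.32 with DCA, with overlap (limma adjusted p = 0.318), and was called higher in the authors' deposited table. Mzb1 and Pou2af1 were fitted higher too, and Irf4, under the filter, was higher in every DSS+DCA library (0.0835 against 0.263 FPKM on average). Mzb1 was at 0 in DSS+DCA replicate 2 and Tnfrsf17 in DSS+DCA replicates 1 and 2. Jchain measured 19.8, 4.37 and 25.0 FPKM in DSS and 4.30, 4.23 and 12.8 with DCA. The 13 colonocyte markers had a median of -1.37, with Alpi called lower, and their most abundant member Car1 measured 4405 and 4057 FPKM on average. All 10 smooth muscle markers were fitted higher with 0 called, their groups overlapped, and their summed FPKM ran from 44.8 to 837 in DSS and from 115 to 1920 with DCA, with Myl9 the most abundant. The fibroblast and macrophage markers had medians of 0.04 and 0.25, with Dcn called higher. Of the pancreas markers, a source of Pdia2, 3 were tested, and they summed to 25.8 to 41.4 FPKM in DSS and 14.6 to 20.7 with DCA, mostly from Cela1 and Clps, while 8 were at 0 in at least 1 library. The part of each of these lists in the members' values was not tested.

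**Figure D3:**
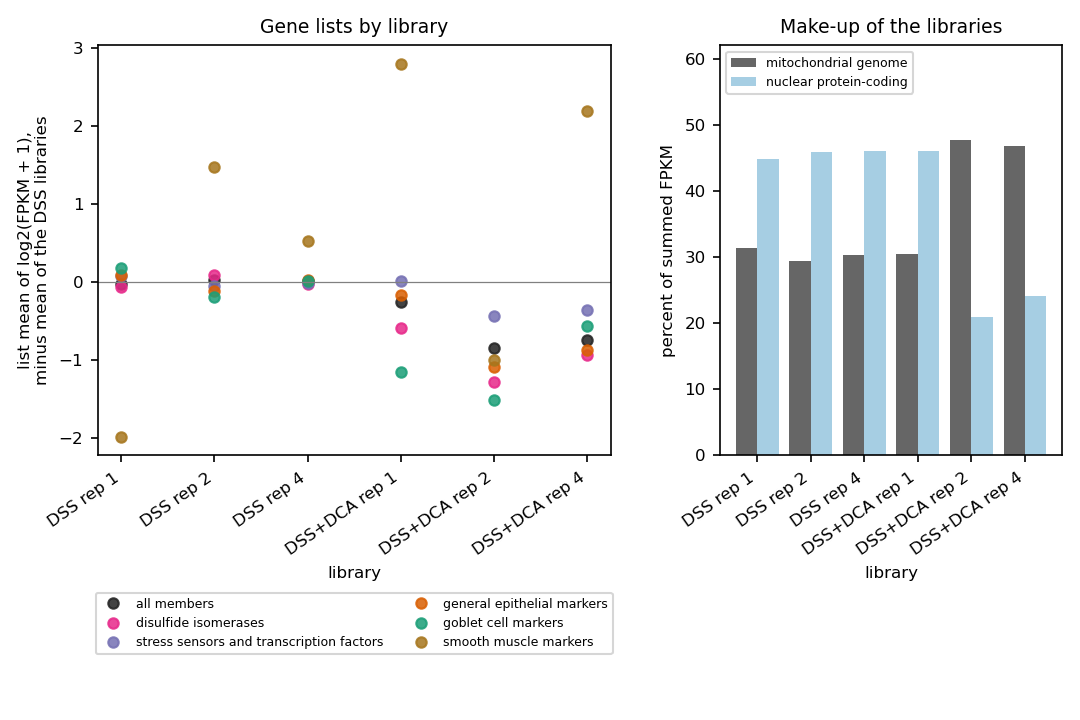
Left, mean log2(FPKM + 1) of 6 gene lists in each library minus the mean of the DSS libraries; right, percent of the summed FPKM from the mitochondrial genome and from nuclear protein-coding genes. The disulfide isomerases, goblet cell and epithelial markers lie below DSS in the 3 DSS+DCA libraries, smooth muscle markers scatter in both groups, and DSS+DCA replicates 2 and 4 have the high mitochondrial share.

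The level of the members as a group depended on the scale. When each library was centred on the mean log2 level of the 15 general epithelial markers, the median log2 change of the members was -0.01, of 43 then tested 23 were fitted lower and 20 higher, 8 lay apart in each direction (2.01% of all genes lower and 42.2% higher), and the median of all genes moved up by 0.51. On this scale only Agr2 was called (log2 change -1.82, limma adjusted p = 0.0333), while Fkbp11 had -1.29 and Sdf2l1 -0.71 (limma adjusted p = 0.0521 and 0.0755). All 8 disulfide isomerases were still fitted lower, with a median of -0.37, where 12.4% of all genes were fitted lower. Of the 8 sensors and transcription factors 7 were fitted higher, as were most genes. Their median was 0.32 with 0 called, where the median of all genes was 0.42. The split of all calls was 229 higher and 31 lower there, against 19 and 63 on the deposited scale. Rescaling to an equal sum over nuclear protein-coding genes gave a median of -0.25 for the members after a shift of 0.32 in that of all genes. It called Agr2 (-2.08, limma adjusted p = 0.0250) and Fkbp11 (-1.50, limma adjusted p = 0.0434) among 78 higher and 45 lower genes. As a share of the summed nuclear protein-coding FPKM, the 48 rows made up 0.892%, 0.981% and 0.946% in DSS and 0.605%, 0.561% and 0.579% with DCA, without overlap. Much of this sum was Agr2 alone, at 26.8% to 31.3% of the 48 rows in DSS and 9.18% to 14.2% with DCA.

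**Figure D4:**
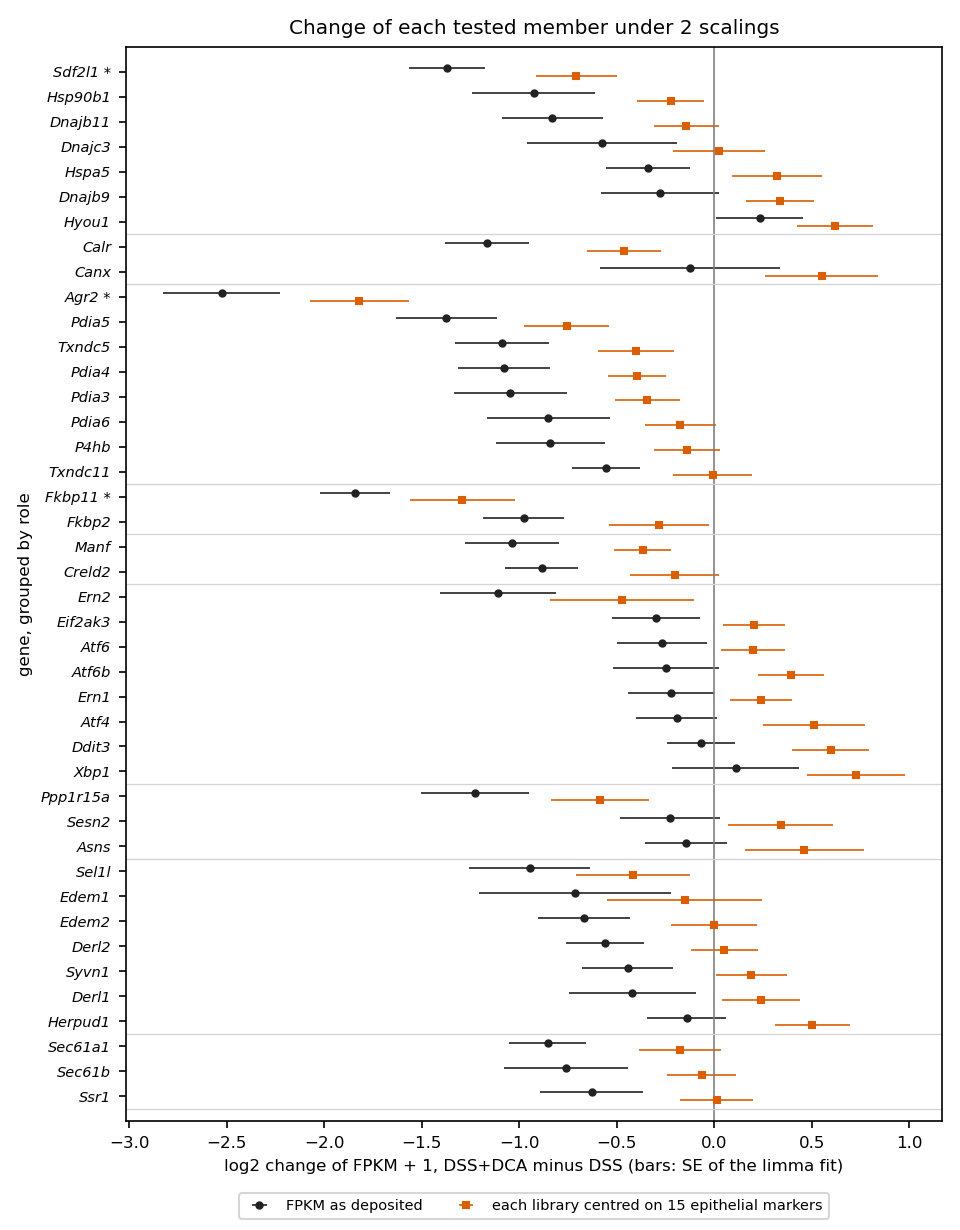
Fitted log2 change (DSS+DCA minus DSS, bars are SE) of each tested member on FPKM as deposited and with every library centred on 15 epithelial markers; asterisks mark the 3 members called on the deposited scale. Agr2 and Fkbp11 stay far below 0 on both scales. Most sensors cross to above 0 when centred, where 12.4% of all tested genes were fitted below 0.

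Ratios within a library do not depend on its scale, and 30 were formed from 10 members over Muc2, Epcam and Atf4, chosen after the values were seen. Agr2 over Muc2 was 0.855, 1.52 and 1.16 in DSS and 0.506, 0.328 and 0.414 with DCA. Every DSS+DCA library was lower, by 2.80-fold in the geometric mean. Over Epcam it was 4.16-fold lower and over Atf4 5.08-fold lower, again without overlap. Fkbp11 was 2.60-fold lower over Muc2, 3.86-fold over Epcam and 4.72-fold over Atf4, each without overlap. Sdf2l1 overlapped over Muc2 and was 1.97-fold lower over Epcam and 2.41-fold over Atf4, without overlap. Calr, Pdia5, Hspa5, Hsp90b1, Ern2 and Ppp1r15a all overlapped over Muc2. Over Epcam, Calr, Pdia5 and Hsp90b1 lay apart at 1.61-fold, 2.12-fold and 1.37-fold lower, and over Atf4 they and Ppp1r15a lay apart at 1.97-fold, 2.59-fold, 1.67-fold and 2.24-fold lower. Hspa5 and Ern2 overlapped over all 3. Xbp1 was 2.25-fold higher over Muc2 and 1.52-fold higher over Epcam, without overlap, but overlapped over Atf4 (1.24-fold, exact permutation p = 0.5), as its own FPKM did. Each ratio without overlap had an exact two-sided permutation p = 0.1, the smallest that 3 against 3 libraries allow (adjusted over the 30 ratios, p = 0.176), so none can pass. The share of all genes that lie apart over the same denominators was not measured. Epcam had a log2 change of -0.48, where the median of the 15 epithelial markers was -0.80. Centred on those 15 markers, Calr, Pdia5 and Hsp90b1 had log2 changes of -0.46, -0.76 and -0.22 (limma adjusted p = 0.128, 0.0718 and 0.349).

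**Figure D5:**
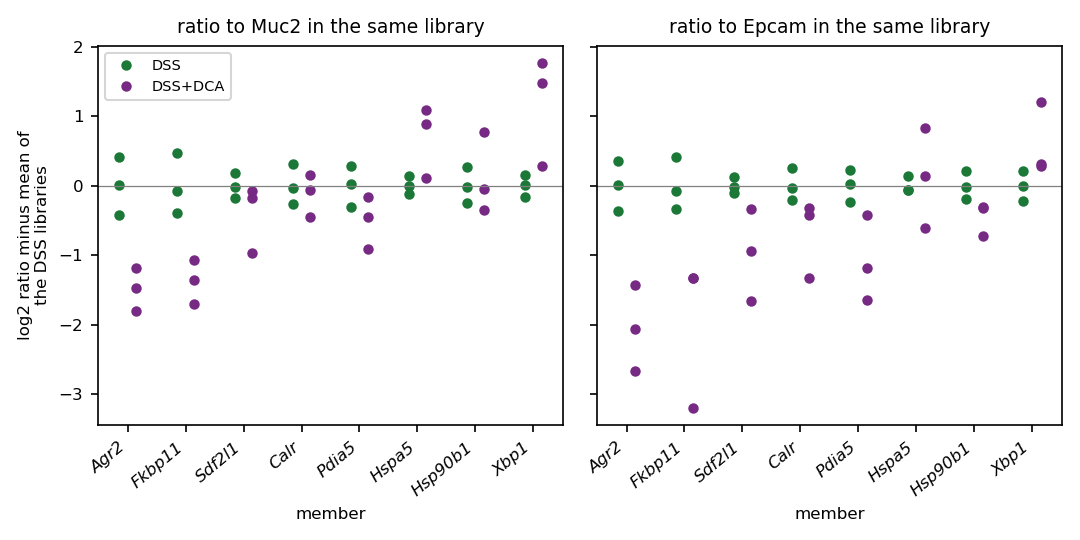
Log2 ratio of 8 members to Muc2 (left) and to Epcam (right) in the same library, minus the mean of the DSS libraries; each point is a library. Agr2 and Fkbp11 lie below DSS in both panels, Xbp1 lies above, and Hspa5 overlaps in both.

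The 10 tested members with ERSE or ERSE-II, whose sites are printed above, had 0 called and 5 separated lower, with a median log2 change of -0.70 and a range from -1.17 (Calr) to -0.12 (Canx). The 26 tested members whose promoter windows held the exact letters of neither had 3 called and 14 separated, with a median of -0.69. Over all tested genes 0.431% were called lower and 17.8% separated lower, and the difference between the 2 sets of members was not tested.

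A wider list of 124 ER genes outside the 47, sorted by role, gave 118 tested genes, of which 3 fell and 0 rose (limma), against 0.431% and 0.13% of all tested genes, with a median log2 change of -0.31 (all genes -0.09). Creb3l1 (OASIS), an ER-bound transcription factor of secretory cells, measured 53.4, 62.5 and 57.1 FPKM in DSS and 18.3, 16.9 and 23.8 with DCA, and fell 2.94-fold without overlap (log2 change -1.52 ± 0.19 SE, limma adjusted p = 0.0347). Atf3, a stress-induced factor of the ATF4 pathway, measured 31.3, 38.3 and 36.7 FPKM in DSS and 14.3, 14.6 and 11.6 with DCA, and fell 2.62-fold (limma adjusted p = 0.0364). Both belong to the list for sensing and the integrated stress response, in which 2 of 43 fell and the median was -0.19. Srp72, of the signal recognition particle that brings ribosomes to the ER, fell 2.60-fold from 9.53 ± 0.443 to 3.66 ± 0.703 FPKM (limma adjusted p = 0.0486) and was the 1 of 21 translocation genes called, at a median of -0.40.

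Of all tested genes 0.561% were called, 16.7% had an unadjusted p under 0.05 and 60.5% were fitted lower. N-glycosylation and glycan trimming had 0 of 16 called (6 at an unadjusted p under 0.05), all 16 fitted lower and a median of -0.55. Its smallest p were those of Uggt1, which senses glycoprotein folding (6.58 ± 0.206 and 3.01 ± 1.31 FPKM, limma adjusted p = 0.167), and Rpn1, a subunit of oligosaccharyltransferase (63.3 ± 5.72 and 33.8 ± 13.1 FPKM, limma adjusted p = 0.184). Other folding factors had 0 of 23 called (8 at an unadjusted p under 0.05) and a median of -0.18, led by Erp44, which retains thiol-linked cargo (27.8 ± 1.12 and 13.7 ± 3.23 FPKM, limma adjusted p = 0.107), and Sil1, an exchange factor of BiP (limma adjusted p = 0.145). Other degradation genes had 0 of 15 called (2 at an unadjusted p under 0.05) and a median of -0.32, led by Selenok and Aup1 (limma adjusted p = 0.186 and 0.219). When centred on the epithelial markers these 5 lists had medians from 0.06 to 0.38, where the median of all genes was 0.42, so that each list stayed below it, by 0.04 to 0.36.

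The authors' deposited table called 10 of the 48 rows, all lower with DCA, where it called 2.29% of the tested genes lower and 2.42% higher. They were Sdf2l1, Calr, Pdia4, Pdia5, Agr2, Txndc5, Fkbp11, Manf, Ppp1r15a and Sel1l, and the authors' deposited table gave folds (DSS+DCA over DSS) from 0.178 for Agr2 to 0.484 for Manf. It therefore held the 3 genes called by limma and 7 more that did not pass there, and of these 10 Sel1l alone had libraries that overlapped. Pdia3, Fkbp2, Creld2 and Sec61a1 had deposited q-values of 0.0124, 0.0470, 0.0377 and 0.0152 and were not called by the authors. Their folds were 0.505, 0.507, 0.533 and 0.543, nearer to 1 than those of the 10. The limma calls used no fold threshold, so the 2 sets of calls are not on the same terms.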

How the data were processed

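Colonic tissue of 6 samples was profiled by RNA-seq, per the labels' protocols with oligo(dT) selection and dUTP marking of the second strand. The authors deposited 1 table with FPKM of every gene in each library, per the file headers. Per the submitters' processing notes, which give no roles, the tools were edgeR, DESeq2, StringTie 2.1.6, HISAT2 2.2.1 and cutadapt 1.9. Genome build and strand setting are not stated in the labels or headers used here. Per the file headers, the authors also deposited a fold change, which is the ratio of the DSS+DCA mean to the DSS mean, its log2, and p-values and q-values.

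Values were transformed to log2(FPKM + 1), which understates the change of low genes. A mean of 0.5 FPKM or more was required, which left 14611 genes for limma 3.58.1 (R 4.3.3, lmFit and eBayes with trend) in a two-sided test with no covariate, with Benjamini-Hochberg adjustment over all of them and calls at an adjusted p under 0.05. Folds are ratios of mean FPKM unless called geometric, means carry the SD of 3 libraries and log2 changes their SE. Count tests were not run, because whole reads were not recovered. FPKM times transcript length was multiplied by the depth, searched in each library, that best gave whole numbers. The product lay within 0.05 of a whole number for 15.8% to 25.0% of low values. A depth not fitted to the values would give 10%, and the share by chance after such a search was not measured. FPKM carry no depth, so no counting error is given.

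The script was tested on simulated data with 200 changed genes among 14611. It recovered 19.2% of log2 changes of size 1, 88.4% of size 2 and 98.4% of size 3, with 8 false calls per run on average. Members, gene lists and the naming rule were chosen with earlier results of these data known. That rule took each called member, in each role group the 3 members of smallest p and the most abundant, the pairs Ern1 with Ern2, Agr2 with Agr3 and Atf6 with Atf6b, called genes of the wider lists or else their 2 of smallest p, and of the marker lists the most abundant gene with Muc2, Jchain and Epcam. The wider list held 124 names, of which 121 matched a row. Positions are GENCODE M21 models matched by identifier. Whether the replicate numbers pair the samples is unknown, and the main test used no block. The alternatives tried were leaving out each library, no filter, a pseudocount of 0.1, a minimum mean of 2 FPKM, scaling by trimmed means of M values (30% of M and 5% of A trimmed), rescaling to nuclear protein-coding genes, centring on epithelial markers, quantile normalization, a replicate block, array weights and an adjusted p under 0.1. Figures were drawn with matplotlib 3.10.9 in Python 3.11.15.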

Additional observations from a re-analysis of the deposited data

How the results depend on the processing

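Against 82 genes and 3 members called by limma with a members' median of -0.69, no filter gave 2 genes and 0 members (22 members at an unadjusted p under 0.05), scaling by trimmed means of M values 373 and 12, centring on epithelial markers 260 and 1 with a median of -0.0083, rescaling to nuclear protein-coding genes a median of -0.25, quantile normalization a median of -0.43, array weights 6227 and 36, and an adjusted p under 0.1 gave 230 and 5. With the replicate number as a block, 1 gene and 0 members were called (20 members at an unadjusted p under 0.05). Whether the numbers pair the samples is unknown. The deviations of same-numbered libraries correlated at -0.14, -0.17 and 0.02, and those of differently numbered ones from -0.10 to 0.21. With 3 libraries in each group these values cannot settle it. Leaving out 1 library gave 0 to 1321 genes, 0 to 22 members and medians from -0.93 to -0.48. Leaving out a library also leaves fewer samples, and the cause of the differences was not tested. The log2 changes of Agr2, Fkbp11 and Sdf2l1 stayed below 0 under each alternative that gave them a new fit, from -2.71 to -1.82, from -2.35 to -1.29 and from -1.64 to -0.71. Of all tested genes, 12.4% were fitted lower when centred on epithelial markers, 24.7% when rescaled to nuclear protein-coding genes and 52.0% after quantile normalization. On the deposited scale the share was 60.5%. Directions that reversed, none of them called on the deposited scale, were as follows. Centring on epithelial markers gave Hspa5 0.32, Dnajb9 0.34, Dnajc3 0.025, Canx 0.55, Ern1 0.24, Atf6 0.20, Atf6b 0.39, Eif2ak3 0.20, Atf4 0.51, Ddit3 0.60, Asns 0.46, Sesn2 0.34, Herpud1 0.50, Syvn1 0.19, Derl1 0.24, Derl2 0.051 and Ssr1 0.012. Rescaling to nuclear protein-coding genes gave Hspa5 0.080, Dnajb9 0.11, Canx 0.30, Ern1 0.068, Atf6 0.024, Atf6b 0.16, Eif2ak3 0.015, Atf4 0.25, Ddit3 0.35, Asns 0.24, Sesn2 0.13 and Herpud1 0.27. Quantile normalization gave Canx 0.19, Atf4 0.29, Ddit3 0.17 and Herpud1 0.062, and array weights Hyou1 -0.12, Xbp1 -0.40 and Sesn2 0.11. Leaving out 1 library gave Xbp1 from -0.18 to 0.40, Dnajb9 from -0.59 to 0.0070, Canx from -0.70 to 0.18, Ddit3 from -0.16 to 0.046, Sesn2 from -0.44 to 0.037 and Asns from -0.31 to 0.025. The planned count models were not run, as the files hold no counts. Depth is unknown, which limits what can be said of members under 0.5 FPKM.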
